A study of Mus musculus with 3 samples.

Results

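The protamines, the transition proteins and the haploid genes expressed beside them were followed through 3 single-cell libraries of mouse testis. The members were Prm1, Prm2, Tnp1, Tnp2, Hmgb4, Smcp and Oaz3, which were chosen by name, and they are 7 of the 36593 genes in the count matrices. In a spermatid the histones are first displaced by transition proteins and then by protamines, small arginine-rich proteins that pack the paternal genome into the sperm head. Prm1 and Prm2 encode the protamines, and Tnp1 and Tnp2 encode the transition proteins. Hmgb4 encodes an HMG-box protein of the germ line, Smcp a cysteine-rich protein of the sperm mitochondrial sheath, and Oaz3 the testis form of antizyme, an inhibitor of ornithine decarboxylase. The messages of several of these genes are made in round spermatids, stored, and translated later in elongating spermatids.

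The study asked which testicular cells supply stem cell factor (Scf, also named Kitl) to germ cells, and it profiled testes of C57BL/6 mice on the 10x droplet platform. Mice of the Tomato-negative library carried Ddx4-creER; R26tdTomato, were 8 weeks old and had received tamoxifen 4 weeks earlier, which marks the germ line with a red protein, and marked cells were removed by sorting so that somatic cells were enriched. The control library came from Scf fl/fl mice and the cKO library from Scf fl/fl mice that also carried Amh-cre, which drives Cre in Sertoli cells, both at 6 weeks, and each library pooled the cells of 3 mice. Haploid cells were sorted out of the control and cKO suspensions by DNA content, so the spermatids in all 3 libraries were those left by a sort. Each group was 1 library, so no difference between groups has a replicate check and no p-value is given. No tamoxifen is stated for the control and cKO mice. Age, genotype, tamoxifen and sort cannot be told apart between the Tomato-negative and control libraries. Intervals are 95% exact intervals and cover counting error only.

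A total of 5085 of 7626 Tomato-negative, 5975 of 6264 control and 7016 of 7252 cKO barcodes passed limits of more than 200 and fewer than 7500 genes and under 10% mitochondrial counts. Median depth was 10214 unique molecular identifiers (UMIs) in Tomato-negative, 5911 in control and 6326.5 in cKO cells. The libraries shared 9 to 15 barcodes in pairs. Kitl was at 17.3, 3.80 and 55.1 counts per 1000000 UMIs (CPM) over the Tomato-negative, control and cKO cells. This did not check the deletion, because no control cluster was named Sertoli-like, the cKO library held 16 such cells, and a 3′ count need not fall in the deleted part.

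All 7 genes lie on the minus strand of GRCm38. Prm1 (chr16:10796326-10805839), Prm2 (chr16:10791380-10796134) and Tnp2 (chr16:10787936-10788660) form a cluster with Prm3 (chr16:10790505-10790914) that spans 17904 bases. Socs1, a suppressor of cytokine signalling, is the neighbour beyond Tnp2 (chr16:10782240-10785536). Tnp1 is on chromosome 1 (chr1:73015074-73015909), Hmgb4 on chromosome 4 (chr4:128260212-128260957), and Smcp (chr3:92583867-92588997) and Oaz3 (chr3:94432414-94443915) on chromosome 3. On the other strand, Prm1 overlaps Gm46563 and Gm10343, and Tnp1 overlaps 1700027A15Rik. Hmgb4 lies within Csmd2 on the other strand, and Oaz3 overlaps Tdrkh and Mrpl9 on the other strand. The sources used here do not say whether the counting used strand, and without strand the reads of such pairs cannot be told apart.

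The start regions of Prm1, Prm2, Tnp1 and Tnp2 are shown because these 4 genes varied together among cells, and that of Hmgb4 because it holds a motif in common with Prm1 and Tnp1. A RefSeq promoter on GRCm38.p6 was found for 6 of the 7 members, Oaz3 being the one without an entry. The 100 bases before each start are printed 5′ to 3′ on the gene's own strand, with matches to TGACNTCA on either strand (a CRE-like sequence) or to TATAA on either strand in capitals. The RefSeq starts of Prm1 and Prm2 lie inside the gene extents given above, so their windows fall wholly within those extents. The windows are chr16:10796824-10796923 for Prm1, chr16:10792106-10792205 for Prm2, chr1:73015900-73015999 for Tnp1, chr16:10788656-10788755 for Tnp2 and chr4:128260896-128260995 for Hmgb4.
Prm1: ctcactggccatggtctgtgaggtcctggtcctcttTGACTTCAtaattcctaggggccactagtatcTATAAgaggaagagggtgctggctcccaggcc
Prm2: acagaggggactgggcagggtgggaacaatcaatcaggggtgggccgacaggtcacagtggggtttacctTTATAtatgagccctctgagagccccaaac
Tnp1: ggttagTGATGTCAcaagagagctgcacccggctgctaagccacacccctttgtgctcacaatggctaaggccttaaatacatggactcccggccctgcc
Tnp2: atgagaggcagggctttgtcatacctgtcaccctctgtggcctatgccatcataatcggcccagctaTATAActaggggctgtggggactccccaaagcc
Hmgb4: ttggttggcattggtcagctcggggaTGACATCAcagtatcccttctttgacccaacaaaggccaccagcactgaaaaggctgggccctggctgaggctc

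The TGACNTCA match began 64 bases before the start in Prm1, 94 in Tnp1 and 74 in Hmgb4, and 25 bases after it in Smcp. These 4 of 6 members compare with 8.83% of 32851 promoters that hold it between 250 bases before and 50 bases after the start. TATAA was found within 50 bases before the start of Prm1, Prm2 and Tnp2, and 6.36% of promoters hold it there. The motifs were chosen after the sequences had been seen, and a match is a description of the letters only.

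Cells were picked by marks of round and of late spermatids, and most cells of each set did not meet the other rule. Acrv1 encodes an acrosomal vesicle protein of round spermatids, and 313 Tomato-negative, 275 control and 7 cKO cells had at least 2 Acrv1 UMIs (Acrv1 cells). In 175 Tomato-negative, 110 control and 10 cKO cells, Prm1, Prm2, Tnp1 and Tnp2 together held at least 5% of all UMIs (high share cells), with a maximum of 34.9%, 29.0% and 28.7%. Only 23, 26 and 0 cells met both rules, and 131, 73 and 10 high share cells had no Acrv1 UMI. Just under the 5% line, 11, 7 and 0 cells had a share of 4% to 5%, and just over it 8, 6 and 0 cells had 5% to 6%. Acrv1 cells were deep, with a median of 35695, 34598 and 52175 UMIs, and high share cells were shallower than these, with 9263, 6548 and 11064.

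**Figure D1:**
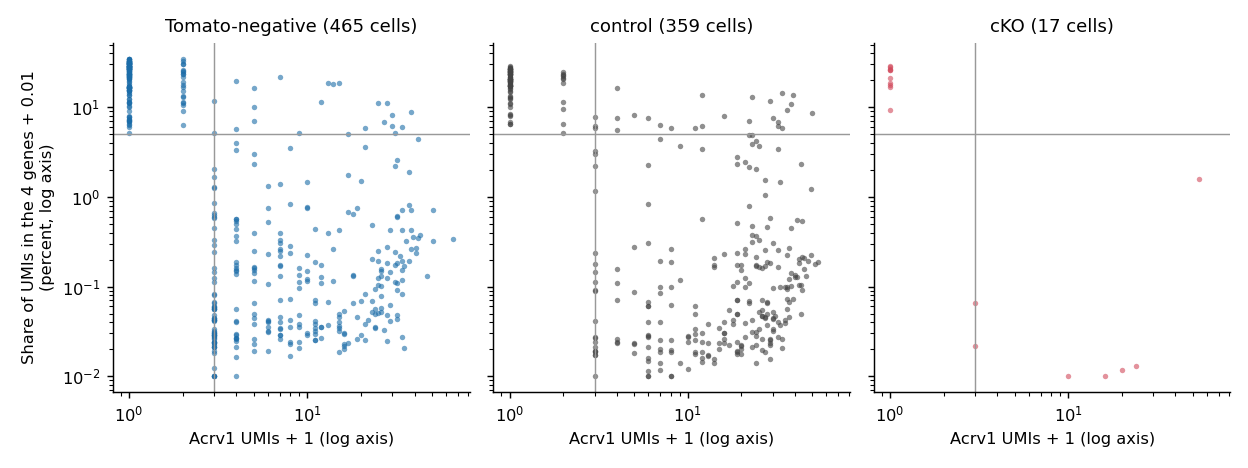
Each point is 1 cell that met either rule, with Acrv1 UMIs plus 1 on the horizontal log axis and the percent of UMIs in Prm1, Prm2, Tnp1 and Tnp2 plus 0.01 on the vertical log axis. Lines mark 2 UMIs and 5%. The upper right corner, where both rules hold, has 23 Tomato-negative, 26 control and 0 cKO cells.

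The sets were set beside clusters that were built without the 7 members. In the control library 270 of 275 Acrv1 cells fell in the round spermatid-like cluster, and the 110 high share cells fell in the elongating (72) and round (38) spermatid-like clusters. In the Tomato-negative library the high share cells were 160 elongating and 15 round spermatid-like cells. Its Acrv1 cells were mixed, and only 119 of 313 were spermatid-like (98 round and 21 elongating). The rest were 118 late and 3 early spermatocyte-like, 13 differentiating and 9 undifferentiated spermatogonia-like and 7 Sertoli-like cells, and 44 cells of an unnamed shallow cluster. These names were close calls for many cells. A late spermatocyte-like cluster with 96 of the cells scored 0.59 for late spermatocyte and 0.502 for round spermatid markers. At resolution 0.4 the scores of that class were 0.609 and 0.597. The unnamed cluster scored highest for round spermatid markers, at 0.533. Values over the Tomato-negative Acrv1 cells are therefore also given for the 119 cells of the spermatid-like clusters, a restriction chosen after seeing the data. No cKO cluster was named for spermatids, and all 10 high share cells and 6 of 7 Acrv1 cells sat in an unnamed cluster of 159 cells. These 17 cKO cells are few, and values from them rest on as few as 1 cell.

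Prm1 was the most abundant member over the Acrv1 cells of the Tomato-negative and control libraries. Its level was 4531 CPM (4489 to 4573), 4154 CPM (4114 to 4194) and 1010 CPM (892 to 1139) in the Tomato-negative, control and cKO libraries. Prm2 was at 2374, 3628 and 1199 CPM. Over all Acrv1 cells the level of Prm2 was thus higher in the control than in the Tomato-negative library while that of Prm1 was lower. Among the transition proteins, Tnp1 was at 2326, 1946 and 643 CPM and Tnp2 at 2569, 3516 and 1195 CPM in the same order of libraries.

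The cytoplasmic and HMG-box members were lower than Prm1 in the Tomato-negative and control libraries, while in the 7 cKO cells Smcp was the highest member. Smcp was at 1116 CPM in Tomato-negative, 1906 in control and 1464 in cKO Acrv1 cells. Hmgb4 was at 826, 1235 and 749 CPM. Oaz3 was the lowest member in all 3 libraries, at 370, 612 and 431 CPM. In the Tomato-negative library Tnp1 and Prm2 were neighbours in the order of levels with overlapping intervals (2296 to 2356 and 2344 to 2405), and in the control library Prm2 and Tnp2 were also close but did not overlap (3591 to 3666 and 3479 to 3553). All 7 genes were summed at 14112, 16997 and 6691 CPM. Over the spermatid-like Acrv1 cells alone, the sum was 36019 CPM in Tomato-negative and 17164 CPM in control, with Prm1 at 11800 and 4195 CPM, so the order of the 2 libraries turned with the cells taken.

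The order of the sums was not the order in a typical cell. Prm1 was held by few cells, with a median of 4 counts and a maximum of 7318 per Tomato-negative Acrv1 cell and a median of 2 and a maximum of 4695 in control. Smcp had a median of 5 and 53 counts and a maximum of 400 and 388. Smcp was accordingly the leading member in 40.3% of Tomato-negative and 66.9% of control Acrv1 cells, and Prm1 in 26.2% and 12.7%. When the Acrv1 cells with a share of 5% or more were set aside, Smcp led the sums as well: 912 CPM against 593 CPM of Prm1 in 290 Tomato-negative cells, and 1663 against 775 CPM in 249 control cells. In the cKO library 1 cell held all 267 Prm1 counts of the Acrv1 cells.

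In high share cells the nuclear proteins took over. Their summed level set the rule, so the levels of these 4 genes there are a description. Prm1 was at 86505 CPM in Tomato-negative, 54594 in control and 74050 in cKO cells, Prm2 at 44008, 44196 and 77880, Tnp1 at 31600, 18576 and 18289, and Tnp2 at 36893, 34448 and 26012. Prm1 was the leading member in 96.0% of Tomato-negative and 74.5% of control high share cells, and in 5 of 10 cKO cells. The members that the rule did not use were also higher than in Acrv1 cells. Smcp reached 4567, 5428 and 8898 CPM, Hmgb4 3591, 3650 and 2205 CPM, and Oaz3 1314, 1413 and 2641 CPM.

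**Figure D2:**
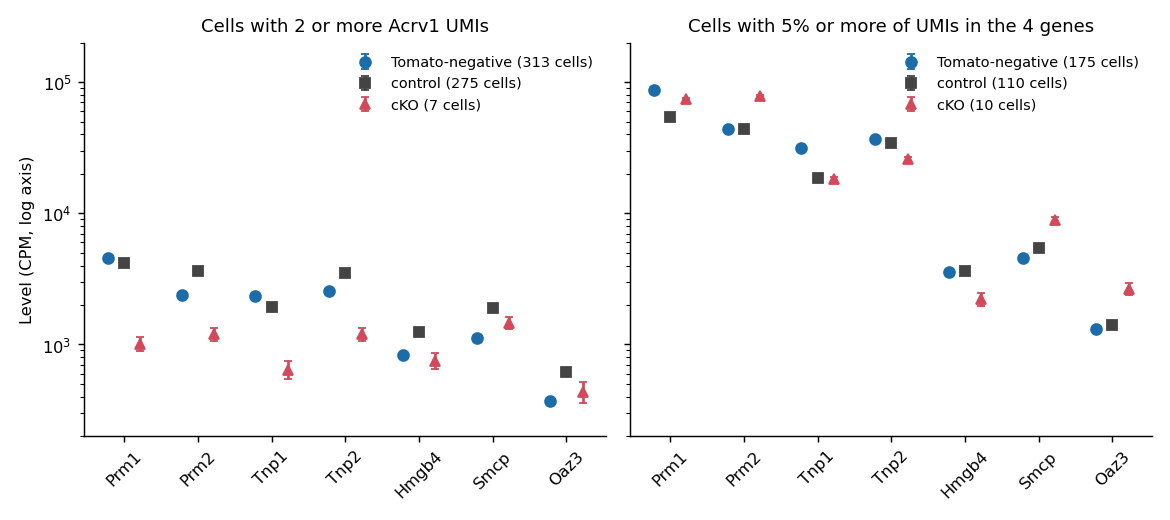
Level of each member (CPM, log axis) in Acrv1 cells (left) and in high share cells (right) of each library, with 95% exact Poisson intervals as bars, many smaller than the symbol. In high share cells the 4 genes on the left of each panel lie between 18289 and 86505 CPM and the other 3 between 1314 and 8898 CPM.

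Most counts of the 4 nuclear proteins lay in high share cells, which follows from the rule that picked the cells. High share cells held 92.2% of all Prm1 counts of the Tomato-negative library, 90.1% of control and 96.0% of cKO. Of the genes that the rule did not use, they held 51.6%, 40.0% and 74.1% of the Smcp counts and 46.0%, 33.4% and 64.4% of the Oaz3 counts. The Acrv1 cells under 5% held 56.2% of Smcp and 59.9% of Oaz3 in the control library but 5.86% of Prm1. Hmgb4 stood with Smcp in this respect, with 43.5% of control counts in high share cells and 53.5% in the other Acrv1 cells.

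In the picked cells the ratio of Prm1 to Prm2 was higher in the Tomato-negative than in the control library. It was 1.91 (1.88 to 1.94) in Tomato-negative Acrv1 cells and 1.14 (1.13 to 1.16) in control Acrv1 cells, and the same in the spermatid-like Acrv1 cells alone (1.91 and 1.14). In high share cells it was 1.97 (1.95 to 1.98), 1.24 (1.22 to 1.25) and 0.951 (0.925 to 0.977) in Tomato-negative, control and cKO. Cell by cell, Prm1 exceeded Prm2 in 169 of 175 Tomato-negative, 85 of 110 control and 5 of 10 cKO high share cells. High share cells were picked with Prm1 and Prm2 in the share, and cells picked by Tnp1 and Tnp2 alone, at 2% of UMIs or more, gave 2.15, 1.29 and 1.26, so the cKO value crossed 1 with the pick. Along the 5 groups of the late index described next, the ratio over all Acrv1 cells stayed between 1.61 and 2.02 in the Tomato-negative and between 0.990 and 1.16 in the control library. Each library's ratio rests on 1 library, so its variation between preparations was not measured. The ratio of Tnp2 to Tnp1 went the other way, with 1.10 (1.09 to 1.12) in Tomato-negative and 1.81 (1.77 to 1.84) in control Acrv1 cells and 1.17 and 1.85 in their high share cells. As a median over Acrv1 cells it was 0.954 and 0.956, below 1 in both libraries. Smcp over Oaz3 was alike throughout, at 3.02, 3.12 and 3.40 in Acrv1 cells and 3.48, 3.84 and 3.37 in high share cells.

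To order the cells without using the members, a late index was formed from other markers. It is the count of 8 elongating spermatid markers (Akap4, Odf1, Gapdhs, Spem1, Cabs1, Dbil5, Tssk6 and Spata3) divided by that count plus the count of 7 round spermatid markers. Acrv1 cells were split by it into 5 groups of 62 or 63 cells (Tomato-negative) or 55 cells (control). The index orders spermatids only: late spermatocyte-like cells hold Dbil5, an acyl-CoA binding protein gene, at 887 CPM in Tomato-negative and 559 CPM in control, and so score late although round markers are low in them. In the Tomato-negative library such cells were among the Acrv1 cells. Group 1 was shallower than the rest, with a median of 2955 UMIs in Tomato-negative and 6367 in control cells, against 25622 to 50866 and 33930 to 46370 in the other groups. The part of depth in the values of group 1 was not tested, beyond the repeat below without shallow cells.

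The protamines were steeply higher in group 5. In the control library Prm1 was at 285, 45.6, 134, 1041 and 16454 CPM from group 1 to group 5, and Prm2 at 263, 46.0, 124, 1034 and 14243 CPM. In the Tomato-negative library Prm1 was at 1125, 269, 156, 2208 and 12313 CPM and Prm2 at 687, 167, 77.3, 1238 and 6371 CPM. Both genes were thus lowest in group 2 or 3 and highest in group 5. In groups 2 and 3 Prm1 lay within its range over the classes other than spermatids. That range was 36.7 to 247 CPM in control and 79.0 to 538 CPM in Tomato-negative cells. The part of such carried counts in these groups was not tested. Group 5 was above group 1 by 57.8-fold (51.7 to 64.9) for Prm1 in control and by 10.9-fold (9.94 to 12.1) in Tomato-negative cells. Among Acrv1 cells of at least 5000 UMIs the Prm1 fold was 415 in control and 43.4 in Tomato-negative cells, and without an upper limit on genes per cell it was 67.6 and 66.0. In the spermatid-like Acrv1 cells alone it was 60.9 (54.4 to 68.3) in control and 19.9 (18.3 to 21.7) in Tomato-negative cells, with Prm1 at 2265, 194, 331, 5195 and 45045 CPM in Tomato-negative groups 1 to 5. Without Dbil5 in the index it was 190 and 217.

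The transition proteins were ahead of the protamines in the middle groups, where Prm1 was within the range of classes other than spermatids. Tnp1 was at 260, 216, 417, 1011 and 6671 CPM in control groups 1 to 5 and Tnp2 at 247, 90.3, 254, 1334 and 13345 CPM. In Tomato-negative cells Tnp1 was at 563, 375, 456, 1770 and 5418 CPM and Tnp2 at 689, 218, 171, 1683 and 6550 CPM. The protamine sum over the transition protein sum was 0.299 (0.255 to 0.350) and 0.384 (0.347 to 0.423) in control groups 2 and 3 and 1.53 (1.52 to 1.55) in group 5. In Tomato-negative cells it was 0.372 (0.338 to 0.409) in group 3 and 1.56 (1.54 to 1.58) in group 5. Tnp2 over Tnp1 was likewise low in a middle group, at 0.419 in group 2 and 2.0005 in group 5 of control cells. In Tomato-negative cells it was 0.374 in group 3 and 1.21 in group 5. Group 1 did not continue this order. There the protamine sum was above the transition protein sum in both libraries. Tnp2 was above Tnp1 in Tomato-negative group 1 (689 against 563 CPM) and close to it in control (247 against 260 CPM). In the spermatid-like Acrv1 cells alone the protamine to transition protein ratio was 0.292 and 0.274 in groups 2 and 3 and 1.56 in group 5 of the Tomato-negative library.

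Smcp, Hmgb4 and Oaz3 were already present in the early groups and changed less. Smcp was at 1109, 1329, 1659, 2210 and 2806 CPM in control and at 304, 966, 1189, 1480 and 951 CPM in Tomato-negative cells. Hmgb4 was at 378, 552, 895, 1539 and 2355 CPM in control and 310, 427, 643, 1210 and 938 CPM in Tomato-negative cells. Oaz3 was at 433, 489, 542, 705 and 797 CPM in control and 108, 360, 394, 466 and 312 CPM in Tomato-negative cells. In the control library all 3 were highest in group 5, whereas in the Tomato-negative library they were highest in group 4. In the spermatid-like Acrv1 cells alone they were highest in group 5 in both libraries, with group 5 over group 1 at 3.31 and 6.34 for Hmgb4, 2.68 and 2.52 for Smcp and 2.23 and 1.84 for Oaz3 in Tomato-negative and control cells. Their direction depended on which cells were ordered. Over all cells with at least 10 counts of the 15 index markers, whatever their Acrv1, groups 3 to 5 had a median of 0 Acrv1 UMIs, and group 5 over group 1 was 0.0603 for Hmgb4, 0.153 for Smcp and 0.130 for Oaz3 in control and 0.870 for Hmgb4 in Tomato-negative cells. In those cells Prm1 was 6.23-fold (control) and 58.2-fold (Tomato-negative) higher in group 5. The 8 elongating markers of the index had a median log2 difference there of -1.27 in control and 0.99 in Tomato-negative cells. The index orders spermatids only, so these folds do not give a direction among spermatids.

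The members were then set against all genes. In the control library 6 of 7 were past 2-fold up from group 1 to group 5, against a background of 16.9% of 9548 genes, with Oaz3 at 1.84-fold. In the Tomato-negative library 7 of 7 were past 2-fold up, against 23.4% of 11046 genes. In the spermatid-like Acrv1 cells alone the counts were 6 of 7 (17.1% of 9456 genes) in control and 7 of 7 (14.5% of 5897 genes) in Tomato-negative cells, whereas in Tomato-negative Acrv1 cells with no upper limit on genes 5 of 7 were up. Over all cells with 10 index counts, 2 were up and 3 down in control and 4 were up in Tomato-negative cells. No share over all genes is given for cells with no upper limit or with 10 index counts. The counts of members in those sets are therefore not compared with all genes. Past 2-fold down in the Acrv1 cells were 20.6% and 40.9% of all genes and 0 members in the control and Tomato-negative library. The median log2 difference of the members was 4.68 and 3.21, and that of all genes -0.37 and -0.51.

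**Figure D3:**
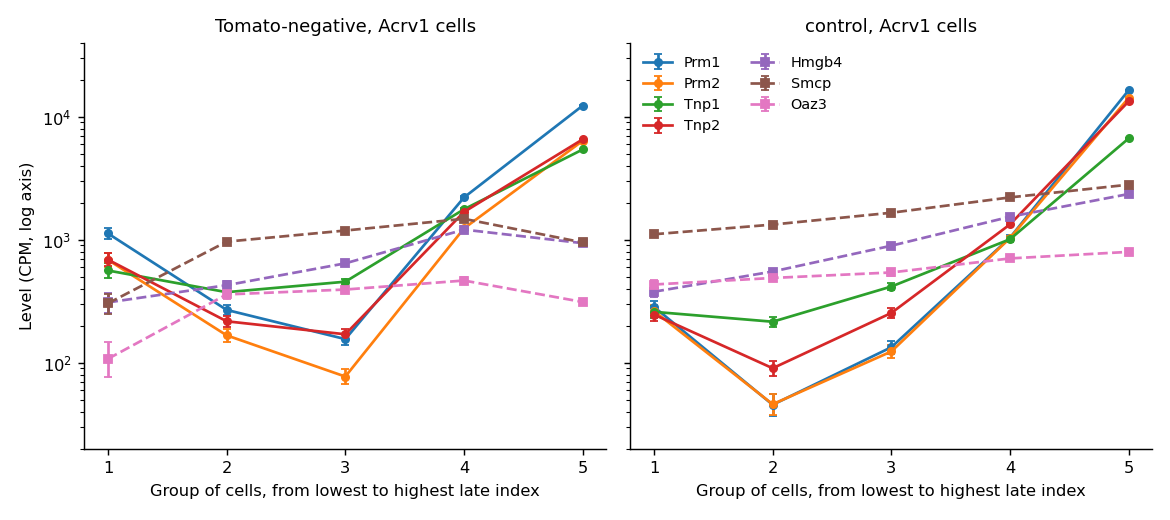
Level of each member (CPM, log axis) in 5 groups of Acrv1 cells ordered by the late index, for the Tomato-negative (left) and control (right) libraries, with 95% exact Poisson intervals. Solid lines are protamines and transition proteins and dashed lines the other 3 members. In control cells Prm1 goes from 45.6 CPM in group 2 to 16454 CPM in group 5 while Oaz3 goes from 433 to 797 CPM over the 5 groups.

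The wider pathway was read from 30 genes in 3 lists. The first list held 16 genes of histone replacement, which include testis histones, histone readers and remodellers. From group 1 to group 5, 4 were past 2-fold up and 3 past 2-fold down in control cells. Of all genes there, 16.9% were up and 20.6% down. In Tomato-negative cells 3 were up and 6 down, near the shares of all genes (23.4% up and 40.9% down). The same shares stand beside the counts of the other lists in Acrv1 cells. H1fnt, a spermatid linker histone, went from 74.2 to 1010 CPM in control and from 121 to 383 CPM in Tomato-negative cells. Hils1, another spermatid linker histone, went from 851 to 1684 and from 159 to 745 CPM. Prm3, which lies between Prm2 and Tnp2, was at 362 and 1302 CPM in control and at 789 and 684 CPM in Tomato-negative cells, but in the spermatid-like Acrv1 cells alone it was higher in group 5 in both, at 373 and 1336 CPM in control and 1238 and 2370 CPM in Tomato-negative cells. Socs1, on the far side of Tnp2, was at 0 and 4.31 CPM in control and 43.1 and 6.38 CPM in Tomato-negative cells, from at most 20 counts in a group.

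Of 6 transcription factors and cofactors of haploid genes, 1 was past 2-fold up and 2 down in control cells, and 2 up and 1 down in Tomato-negative cells. Of 8 genes of mRNA storage and translation, 1 was up in control and 8 in Tomato-negative cells. In the Tomato-negative spermatid-like Acrv1 cells alone 0 of the 8 were up, where 14.5% of all genes were. With no upper limit on genes 1 was up, and no share over all genes is given there. Ybx3, a Y-box protein that binds stored messages, was the highest of the 8, at 2450 and 2038 CPM in control and 248 and 2393 CPM in Tomato-negative cells. In the Tomato-negative spermatid-like Acrv1 cells it was at 1394 and 1499 CPM. Over the 30 genes the median log2 difference was -0.35 in control and 0.82 in Tomato-negative cells, and -0.37 and -0.33 in the spermatid-like Acrv1 cells alone.

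Among Acrv1 cells the 4 nuclear proteins varied together. Pearson's r over cells, on log counts per 10000 UMIs, was 0.89 for Prm1 with Prm2 in 313 Tomato-negative cells and 0.96 in 275 control cells. It was 0.38 and 0.31 for Prm1 with Oaz3, and 0.70 and 0.83 for Smcp with Oaz3. The cells of a library share its preparation, and depth varies among them, so these are descriptions without a test. The genes most like the summed members in the Tomato-negative library, among 11753 genes seen in at least 10% of the cells, were Ccdc54, Actrt2, Iqcf3, H1fnt, Ubl4b, Sh3rf2, 1700092M07Rik, Cst8, Iqcf1 and 1700003F12Rik, with r from 0.80 to 0.76. Their r in the control library was 0.75 to 0.83. Prm3 reached 0.75 and 0.72 with the same sum, and Acrv1 0.54 and 0.38.

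Between the spermatid-like classes, which were clustered without the members, the summed level was 213663 CPM in 194 elongating against 21278 CPM in 114 round spermatid-like cells of the Tomato-negative library. In the control library it was 228789 CPM in 72 against 17016 CPM in 329 cells. Prm1 was 15.9-fold (15.7 to 16.1) and 19.4-fold (19.2 to 19.7) higher in elongating than in round spermatid-like cells, Prm2 13.5-fold and 17.6-fold, Tnp1 8.92-fold and 13.2-fold, and Tnp2 10.1-fold and 12.6-fold. The other 3 members differed less, with 1.80-fold and 3.22-fold for Hmgb4, 1.91-fold and 3.86-fold for Smcp, and 1.64-fold and 2.94-fold for Oaz3. The order of the members by this difference was thus led by the protamines in both libraries.

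Cells of the other classes also carried counts of these genes, at levels that differed between the libraries, the 16 cKO Sertoli-like cells being the one class with none. At least 1 Prm1 UMI was found in 896 of 1394 Tomato-negative, 405 of 975 control and 37 of 3178 cKO somatic-like cells. Among spermatogonia-like and spermatocyte-like cells it was found in 2632 of 3190, 2338 of 4599 and 53 of 2356. Over all somatic-like cells the 7 genes summed to 1137 (1118 to 1156), 419 (401 to 438) and 13.6 CPM (12.0 to 15.3) in the Tomato-negative, control and cKO libraries. In cKO 1 cell held 120 of the 258 counts, and without it the level was 7.26 CPM. With mitochondrial counts under 5% the Tomato-negative level was 792 CPM. The sum was 0.532% of the elongating spermatid-like level in Tomato-negative and 0.183% in control, and 0.00646% of the level of the 10 high share cells in cKO. Over spermatogonia-like and spermatocyte-like cells the sum was 355, 191 and 17.0 CPM.

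Myoid-like cells, a muscle-like type that wraps the tubules, are somatic and hold the level that a class unrelated to spermatids can carry. Their sum was 317 CPM (291 to 344) in 202 cells of the Tomato-negative, 323 CPM (305 to 342) in 675 cells of the control and 7.81 CPM (6.29 to 9.59) in 2017 cells of the cKO library. With each cell thinned to 1000 UMIs, 28.2%, 27.8% and 0.644% of them had a count of any member, against 89.1%, 78.1% and 3.87% before thinning. Both marker lists of spermatids were lowest in the cKO library, as the members were. The 7 round and 8 elongating markers summed to 47.3 and 78.0 CPM in Tomato-negative, 22.5 and 72.2 CPM in control, and 1.89 and 4.89 CPM in cKO myoid-like cells, where 5 of the 7 and 7 of the 8 had a count. The part of spermatid RNA outside cells or of mixed droplets in the carried level was not tested.

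**Figure D4:**
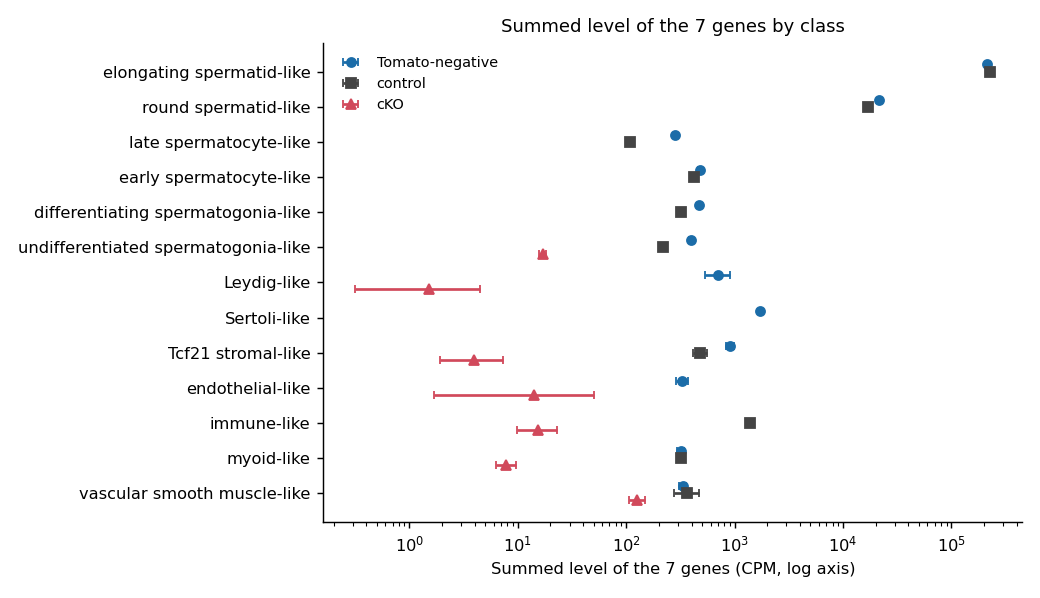
Summed level of the 7 genes (CPM, log axis) in each class of each library, with 95% exact Poisson intervals. Tomato-negative and control spermatid-like classes lie at 17016 CPM or above, their other classes between 108 and 1700 CPM, and the cKO classes at 126 CPM or below. The 16 cKO Sertoli-like cells had no count of any member and have no point.

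The carried level was uneven among the classes. In Tomato-negative Sertoli-like cells, which nurse the germ cells and take up spermatid remnants, it was 1700 CPM (1670 to 1731), and 85 of 671 cells had more than 20 counts. Smcp and Oaz3 stood out there, at 6.45% and 6.57% of their elongating spermatid-like level, while Prm1 was at 0.600%. Without the 3 highest of the 671 cells Smcp went from 287 to 187 CPM, Oaz3 from 83.2 to 57.9 CPM and the sum from 1700 to 1447 CPM. In these cells the elongating markers summed to 465 CPM and the round markers to 107 CPM. The control immune-like cells had a similar excess, 1393 CPM with Smcp at 437 CPM, but without the 3 highest of 149 cells the sum was 766 CPM and Smcp 34.6 CPM. In Tomato-negative Tcf21 stromal-like cells 1 cell held 320 of 605 counts, and the sum was 909 CPM with it and 433 CPM without it. Late spermatocyte-like cells, the deepest class, had the lowest Prm1 level in both libraries.

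The number of counts per cell followed depth only in part. Over 10 classes other than spermatids in the Tomato-negative library, Prm1 lay between 0.677 and 5.55 counts per cell while the median depth lay between 1464 and 69208 UMIs. In the control library it lay between 0.482 and 1.54 counts over depths of 2131 to 46022 UMIs.

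Over somatic-like cells the Prm1 to Prm2 ratio of the carried counts was near that of the spermatids of the same library. It was 1.95 (1.86 to 2.05) in Tomato-negative and 1.19 (1.05 to 1.34) in control cells. Over spermatogonia-like and spermatocyte-like cells the ratio was above that of the high share cells in both libraries. It came from 8054 Prm1 and 3623 Prm2 counts in Tomato-negative and 4065 and 2960 in control. Across the classes with at least 100 counts of both genes together, the spermatid-like ones included, it ranged from 1.52 to 2.60 in 11 Tomato-negative classes and from 0.821 to 1.52 in 8 control classes. The ranges touched only at their ends, where Tcf21 stromal-like cells gave 1.52 (1.22 to 1.89) in Tomato-negative and undifferentiated spermatogonia-like cells 1.52 (1.27 to 1.82) in control. In the cKO library 1 class had enough counts, undifferentiated spermatogonia-like cells, with 0.786 (0.542 to 1.14).

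**Figure D5:**
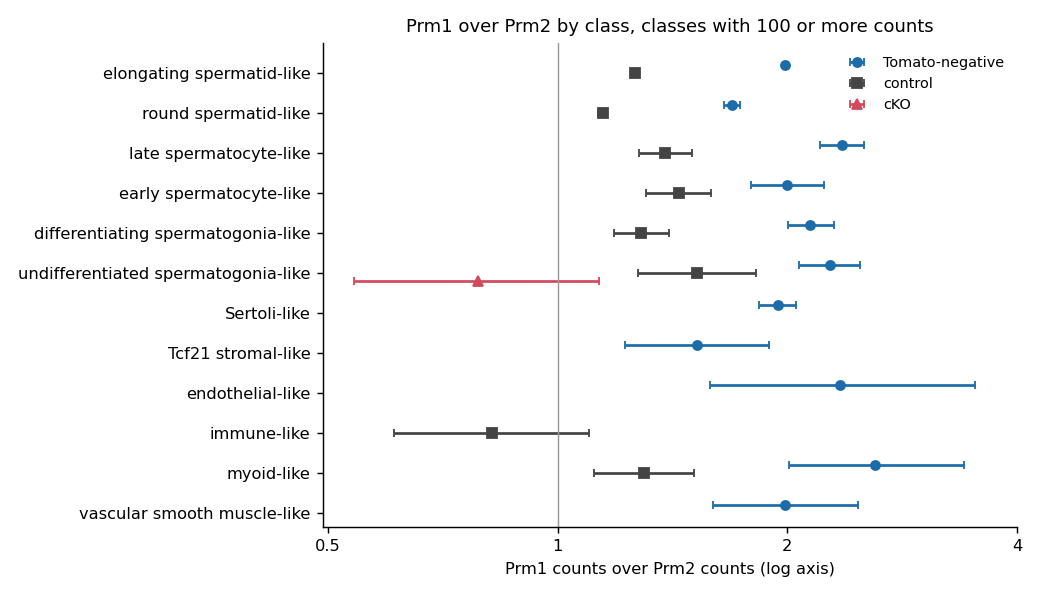
Prm1 counts over Prm2 counts (log axis) in each class with at least 100 counts of both genes together, with 95% exact intervals and a line at 1. The 11 Tomato-negative classes lie between 1.52 and 2.60 and the 8 control classes between 0.821 and 1.52.

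Between cKO and control, the carried level was lower in the cKO library in all 5 classes that had at least 30 cells in both. In myoid-like cells the sum of 7 was 41.4-fold lower (33.4 to 51.8), from 91 counts in cKO against 1204 in control. There 7 of 7 members were more than 10-fold lower, against 3.61% of 13963 genes, with a median log2 difference of -5.23 for the members and -0.14 for all genes. Prm1 was 38.1-fold lower (26.7 to 56.1) and Oaz3, the least changed, 11.8-fold lower (5.55 to 28.0). In Tcf21 stromal-like cells the sum was 121-fold lower (64.2 to 257), and in immune-like cells 90.6-fold lower (60.2 to 143). Vascular smooth muscle-like cells had a 2.89-fold lower sum (2.07 to 3.97), but 120 of the 128 cKO counts were in 1 of 166 cells, and the cKO level was 126 CPM with it and 7.99 CPM without it. These classes were compared within 1 library each, which also differed in how many spermatids they held: 17 cells met either spermatid rule in cKO and 359 in control.

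In undifferentiated spermatogonia-like cells Tnp1 and Oaz3 were less reduced than the other members. The sum of 7 was 12.9-fold lower (11.6 to 14.3) in cKO than in control, and 5 of 7 members were more than 10-fold lower, against 1.05% of 17690 genes. Prm1 went from 70.9 to 1.48 CPM (48.0-fold lower, 35.9 to 65.1). Tnp1 went from 39.9 to 10.7 CPM, which is 3.71-fold lower (3.10 to 4.44), and Oaz3 from 5.57 to 1.75 CPM, 3.19-fold lower (1.93 to 5.13). Tnp1 therefore made up 63.2% of the members' counts in these cKO cells (400 of 633), against 18.2% in control and 17.9% in Tomato-negative cells of the class.

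The Tnp1 counts of cKO undifferentiated spermatogonia-like cells were thinly spread over the class. They came from 348 of 2356 cells with at most 4 in a cell, so that leaving out the 3 highest cells left 10.5 of 10.7 CPM. Tnp1 over Prm1 was 7.27 (5.48 to 9.82), and in the 3 clusters of the class it was 9.11, 11.5 and 5.39. In the cKO myoid-like cells it was 0.182 (0.0623 to 0.439), and in the elongating spermatid-like cells of control 0.318. The level of Tnp1 was 20.9-fold (9.50 to 57.2) higher in cKO undifferentiated spermatogonia-like than in cKO myoid-like cells. In the same comparison Oaz3 was 2.26-fold (1.12 to 5.16) higher, whereas Prm1 was 1.92-fold lower (1.21 to 3.01) and Prm2 not separable (0.782, 0.498 to 1.26). The other somatic-like classes of cKO held few Tnp1 counts. Immune-like cells had 6 (3.84 CPM), with Tnp1 over Prm1 at 1.2 (0.305 to 4.97). The vascular smooth muscle-like class had 14 (13.8 CPM), 13 of them in 1 cell, with a ratio of 0.424 (0.210 to 0.815). Tcf21 stromal-like and Leydig-like cells had 1 each, and endothelial-like and Sertoli-like cells none. In control cells Tnp1 over Prm1 was 0.563 (0.466 to 0.678) in undifferentiated spermatogonia-like and 0.318 (0.259 to 0.389) in myoid-like cells, while in the Tomato-negative library both were close, at 0.485 and 0.464. Markers of elongating spermatids summed to 34.6 CPM in the cKO undifferentiated spermatogonia-like cells, of which Dbil5 gave 31.9 CPM, and round markers to 14.2 CPM. The antisense gene at Tnp1, 1700027A15Rik, had 6 counts (0.161 CPM) in these cells. In high share cells of the cKO library it was at 4323 CPM. The part of reads from the other strand in the Tnp1 counts was not tested.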

How the data were processed

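The deposited files hold raw UMI counts per gene and cell, made by the authors with the 10x Chromium 3′ kit v2 and, per the submitters' processing notes, Cell Ranger 2.1.1 and Seurat 3.1 on GRCm38. The merged matrix holds 7626 Tomato-negative cells (barcodes ending _1), the 6264 control cells again, with 0 differing values of the 7 genes, and 149 cKO barcodes. Only the Tomato-negative cells were taken from it. Labels give 1 sample per group and no replicates. The study's methods state limits of 200 to 3500 genes and 10% mitochondrial counts, which leave 5830 of the 14039 barcodes of the merged matrix, 3637 control and 4545 cKO cells. Limits of 7500 genes and 10% leave 11209 of the merged matrix, the number the study analysed, and 7500 genes and 5% leave 5827 control and 6837 cKO cells, the numbers it analysed there. Limits of 7500 genes and 10% were used for all 3 libraries, with 3500 genes and 5% as alternatives.

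Counts of cells were summed per set or class and divided by their UMIs (CPM). A UMI count is 1 per molecule at the 3′ end, so levels were compared between genes without length. Poisson intervals, Clopper-Pearson intervals and exact conditional binomial intervals of ratios were used (scipy 1.17.1). With 1 library per group no model was fitted and no p computed. A gene counted as past a fold where its counts summed to at least 20 over both groups, with 0.5 added to each count. Clusters were built per library with scanpy 1.11.5 (leiden, resolution 0.8) without the 7 members and named "-like" from marker lists. A rule that leaves clusters with leading markers of another class unnamed was added after the clusters had been seen. Clusters whose germ and somatic marker scores were alike also stayed unnamed, by a limit of 0.8 of the best score. That limit too was set after the clusters had been seen. Shallow clusters with no own marker among their top genes were left unnamed as well. Scrublet marked 2.996% to 4.675% of cells in the limits as doublets, which were kept in the main values. Cells were thinned to 1000 UMIs where shares of cells were compared. Positions are from GENCODE vM21 and promoters from RefSeq.

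The members, lists, motifs and sets were chosen with earlier results of these data known. Besides the members, the text names the 10 genes most correlated with their sum, the cluster neighbours Prm3 and Socs1, and the pathway genes with at least 1000 CPM in late cells. Scripts were tested on simulated data. Alternatives were other limits on genes, other thresholds for Acrv1 and share, doublets removed, another resolution and thinning. Chosen after seeing the data were 5% mitochondrial counts, Acrv1 cells of spermatid-like clusters alone, the index without Dbil5, cells of 5000 or more UMIs, cells picked by Tnp1 and Tnp2 alone or with 0 Acrv1, no upper limit along the index, and leaving out the highest cells.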

Additional observations from a re-analysis of the deposited data

Results flagged for a closer look

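Prm3, between Prm2 and Tnp2, was lower in the highest than in the lowest group of the late index in Tomato-negative Acrv1 cells (0.867-fold, 0.767 to 0.983) and higher in control cells (3.59-fold, 3.23 to 4.001). Ybx3 did the reverse, with 9.66-fold (7.87 to 12.0) in Tomato-negative and 0.832-fold (0.793 to 0.873) in control cells. In the Acrv1 cells of spermatid-like clusters alone the folds were 1.91 and 3.58 for Prm3 and 1.08 and 0.829 for Ybx3 in Tomato-negative and control cells, so the opposite direction of Prm3 was gone. The differences between the libraries were not tested, since each library is 1 sample. The Acrv1 cells outside the limits, with 7500 or more genes, numbered 586 in the Tomato-negative and 40 in the control library, and the 7 genes summed to 10844 CPM (10816 to 10872) in the former and 4825 CPM (4744 to 4908) in the latter.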

How the results depend on the processing

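No paired analysis was possible because each group is 1 library. Of 834 alternative values of 149 results, 415 lay inside the 95% counting interval of the reported value, 410 lay outside it and 9 changed direction. The cause of these differences was not tested.

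The summed level of the 7 genes in Acrv1 cells was 19652 CPM in Tomato-negative and 28123 CPM in control cells with the limit of 3500 genes, 11360 and 14331 CPM with no upper limit, 11736 and 19177 CPM for 1 or more Acrv1 UMIs, 18682 and 16795 CPM for 5 or more, 14331 and 16873 CPM without doublet calls, and 36019 and 17164 CPM in spermatid-like clusters alone. Prm1 over Prm2 in Acrv1 cells was 1.77 and 1.20 with 3500 genes, 2.01 and 1.21 for 1 or more Acrv1 UMIs, 1.83 and 1 as the median over cells, and 1.84 in Tomato-negative cells with no upper limit. As medians over cells, Tnp2 over Tnp1 was 0.954 and 0.956, Prm1 over Smcp 0.667 and 0.115, and the protamine over transition protein sum 0.635 in control cells, all below 1 where the summed counts gave values above 1.

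In high share cells Prm1 over Prm2 was 1.997 and 1.26 at a share of 10%, 1.22 in control at 2%, 1.83 and 1.16 with 3500 genes, 1.94 in Tomato-negative cells with no upper limit, and 1.93 there with 0 Acrv1 UMIs. Picked by Tnp1 and Tnp2 alone it was 2.15, 1.29 and 1.26 in Tomato-negative, control and cKO, so the cKO value was then above 1.

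Along the late index, Prm1 in group 5 over group 1 was 58.2 and 6.23 over all cells with 10 index counts, 66.0 and 67.6 with no upper limit, 43.4 and 415 at 5000 or more UMIs, and 217 and 190 without Dbil5 in the index. In Tomato-negative cells it was 19.9 in spermatid-like clusters alone and 16.7 with mitochondrial counts under 5%. Over all cells with 10 index counts, Hmgb4 was at 0.870 in Tomato-negative and 0.0603 in control cells, and Smcp and Oaz3 were at 0.153 and 0.130 in control cells. Those cells were not spermatids alone, so the index did not order them by spermatid stage.

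The somatic-like sum was 1173 and 450 CPM without doublet calls, 773 CPM in Tomato-negative cells under a 1% share and 792 CPM there with mitochondrial counts under 5%, 1459, 449 and 7.09 CPM with 3500 genes, 1077, 395 and 7.26 CPM without the highest cell, and 1619, 580 and 9.50 CPM thinned to 1000 UMIs, in the order Tomato-negative, control and cKO. In vascular smooth muscle-like cells cKO over control was 0.0180 with 3500 genes and 0.0220 without the highest cKO cell, against 0.347. The undifferentiated spermatogonia-like comparison with 3500 genes and the vascular smooth muscle-like one at resolution 0.4 gave no value, for lack of 30 cells in a library. In cKO, single members rest on few counts outside the high share cells.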
